A study of Rattus norvegicus with 11 samples.

Results

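Soleus libraries of 11 rats were ranked by the level of Arntl, the gene of the clock activator BMAL1, relative to Dbp, an output gene of the clock, and the 5 libraries with the highest ratio were compared with the 5 with the lowest. The libraries were chosen by measured values: log2((Arntl CPM + 0.5) / (Dbp CPM + 0.5)), where CPM is the count per M counted reads of the library (M, mega). They are called high-ratio and low-ratio libraries here. Of 11 libraries, 10 entered the comparison and the middle one was left out. Arntl and Dbp set the sides, so they are no result and were left out of every test. The other clock genes belong to the same feedback loop, so a difference in them between the sides is not independent of the choice. The time of day at which tissue was taken is not in the labels, so neither side is named early or late.

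The animals were male Sprague Dawley offspring at an age of 12 months, no pair of them from the same litter. High-fat animals are the offspring of mothers fed a diet rich in lard fat and sucrose in the 3 weeks up to mating, in pregnancy and in lactation. Control animals are the offspring of mothers on a normal fat diet over the same period. All were weaned at day 21 onto standard chow, lived on a 12 h light and 12 h dark cycle and were fasted 1 to 2 h before anaesthesia with isoflurane. No animal was itself on the high-fat diet after weaning. The soleus, a postural hind limb muscle of mainly slow oxidative fibres, was profiled as polyadenylated RNA, with 1 library per animal.

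The mammalian clock is a feedback loop. BMAL1 pairs with CLOCK or NPAS2, binds E-boxes and drives the Per and Cry genes, whose proteins then inhibit the pair. The same pair drives Nr1d1, whose protein REV-ERBα represses Arntl through ROR elements, and the D-box activators Dbp and Tef, which compete with the repressor NFIL3. In peripheral tissues, skeletal muscle included, Arntl, Npas2 and Nfil3 are known to peak at about the time of day at which Dbp, Tef, Nr1d1 and Ciart are low, with the Per genes peaking after Dbp.

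The ratio fell into the order control 3, high-fat 5, high-fat 1, high-fat 4 and control 1 on the high side, with values of 0.57, -0.60, -1.93, -2.31 and -2.43. On the low side it was -4.16 in control 4, -4.76 in control 5, -5.14 in control 6, -6.01 in high-fat 3 and -6.46 in high-fat 2. The middle library, control 2, stood at -3.25, which was 0.81 below the last library of the high side and 0.91 above the first of the low side. Arntl spanned 20.6-fold and Dbp 9.01-fold between the highest and the lowest library. The sides and the order stayed as they are with 0.1 in place of 0.5 and with TMM-scaled CPM. The high side held 3 high-fat and 2 control animals and the low side 2 high-fat and 3 control animals. High-fat animals were thus 60% of the high side and 40% of the low side (two-sided Fisher's exact test, p = 1).

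**Figure D1:**
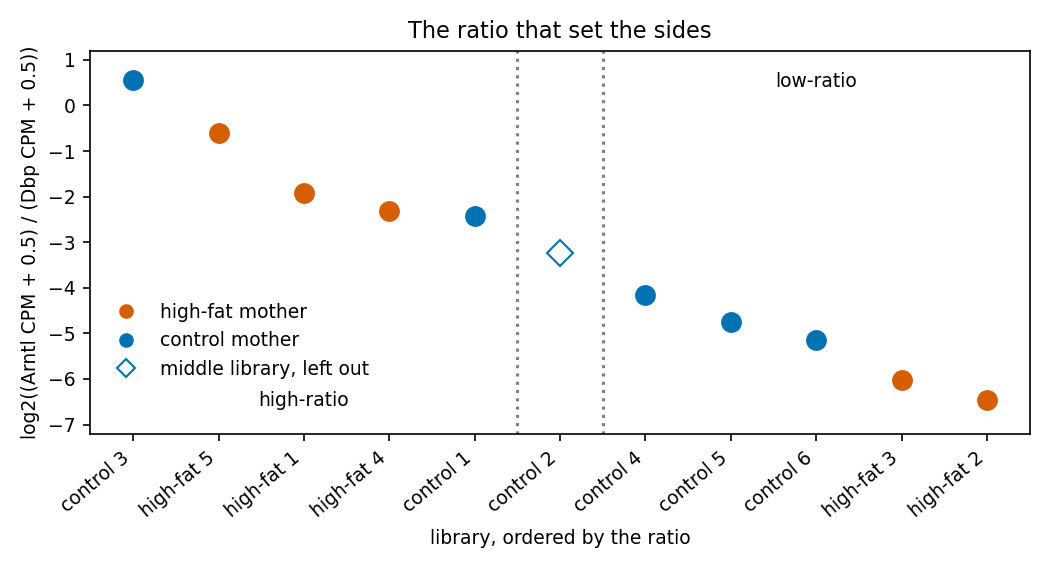
Each point is 1 library, placed from left to right by its log2 ratio of Arntl to Dbp (y axis, from CPM with 0.5 added), with the offspring of high-fat and of control mothers in different colours. Both diet groups lie on both sides of the middle library (open diamond, -3.25), and the ratio runs from 0.57 to -6.46.

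Promoter sequences show where the loop could meet these genes. The windows below come from RefSeq promoters of assembly GRCr8, which reach from 250 bases before to 50 bases after a gene's start. They are shown because they hold, in capitals, an element by which the loop is known to act. The elements searched on both strands were the E-box CACGTG, the D-box in the forms TTATGTAA, TTACGTAA and TTATGCAA, and the ROR element TAGGTCA. No form contains another.
Bmal1 (the current symbol of Arntl), ROR element, chr1:176766272-176766358, plus strand: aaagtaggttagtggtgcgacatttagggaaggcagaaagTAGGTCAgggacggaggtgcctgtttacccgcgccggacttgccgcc
Ciart, a pair of E-boxes, chr2:186112236-186112321, minus strand: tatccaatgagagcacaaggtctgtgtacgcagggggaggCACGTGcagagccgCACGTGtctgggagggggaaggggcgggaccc
Nr1d1, E-box, chr10:84229600-84229685, minus strand: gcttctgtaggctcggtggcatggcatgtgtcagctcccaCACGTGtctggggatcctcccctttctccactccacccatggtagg
Tef, E-box, chr7:115206589-115206674, plus strand: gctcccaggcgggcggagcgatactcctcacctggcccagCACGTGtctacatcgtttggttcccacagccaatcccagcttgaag
Per2, D-box, chr9:99497138-99497225, minus strand: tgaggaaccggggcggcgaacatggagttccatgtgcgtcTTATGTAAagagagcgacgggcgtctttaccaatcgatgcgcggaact
Of 17 promoters of 15 clock genes in the table, 4 held the E-box (those of Bhlhe40, Ciart, Nr1d1 and Tef), against 6.42% of all 33469 promoters. The D-box was in 1 (Per2), against 1.85%, and the ROR element in 1 (Bmal1), against 2.63%. A match is a description of letters and not a bound site, and a window without a match says nothing about the factor.

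Between the sides, 10735 genes were tested by the quasi-likelihood F test of edgeR, adjusted by Benjamini-Hochberg over all of them, and genes with an adjusted p under 0.05 are called. Of these, 56 genes (0.522%) were higher in high-ratio libraries and 5 (0.0466%) were lower. At an unadjusted p under 0.05 the shares were 9.66% higher and 7.11% lower. In 2.07% of genes every high-ratio library lay above every low-ratio library, and in 1.2% every one lay below. A p here comes from setting the difference between the sides against the spread of libraries within a side. The sides were split by 2 genes of the same libraries, not by a treatment. The call count changed when single libraries were left out. Without control 4, control 5, control 6, high-fat 2 or high-fat 5 it was 0 (1232 to 1786 genes at an unadjusted p under 0.05), without control 1 it was 3 and without high-fat 4 it was 4, whereas without high-fat 3 it was 275.

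No clock gene was called by this test. Of 20 clock genes listed beside Arntl and Dbp, 14 were tested. At an unadjusted p under 0.05, 3 of the 14 were higher (Clock, Npas2 and Nfil3) and 5 were lower (Per2, Per3, Ciart, Nr1d1 and Tef), and the other 6 were not past that p. The smallest adjusted p was 0.0697, for Per3. For Npas2, Nfil3, Nr1d1, Ciart and Tef the direction was that of the background above for a high Arntl and a low Dbp. Arntl2 and Rorb were removed by the filter on low counts, and the rest were not analysed here. Levels below are CPM after TMM scaling (trimmed mean of M values), given in the order of the ratio above, and differences are log2 fold changes, high-ratio minus low-ratio, with a standard error (SE).

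Among the activators, Clock, the partner of BMAL1, was at 15.1, 12.6, 6.38, 10.2 and 7.88 CPM in high-ratio libraries, against 5.33, 7.09, 5.21, 6.00 and 4.67 CPM in low-ratio libraries. High-fat 1 of the high side lay below control 5 of the low side, and all other high-ratio libraries lay above the low side. The difference was 0.87 ± 0.23 (SE; quasi-likelihood adjusted p = 0.101). Npas2, which can take the place of CLOCK in the pair, was at 23.2, 17.2, 9.11, 10.6 and 13.4 CPM in high-ratio libraries, against 12.1, 9.21, 7.52, 6.59 and 7.32 CPM in low-ratio libraries. Its highest library, control 3, was also the one with the highest ratio, and the sides overlapped through high-fat 1 and high-fat 4. The difference was 0.78 ± 0.25 (SE; quasi-likelihood adjusted p = 0.162). Rora, an activator of Arntl through ROR elements, was at 3.27 to 5.39 CPM in high-ratio and 3.08 to 4.14 CPM in low-ratio libraries, and its log2 fold change of 0.18 ± 0.19 (SE) lay within the spread between libraries.

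Of the repressors, Per3 was the only clock gene whose sides did not overlap. It was at 12.3, 18.3, 20.2, 20.8 and 14.5 CPM in high-ratio libraries, against 31.4, 21.8, 34.2, 24.5 and 37.2 CPM in low-ratio libraries. The difference was -0.79 ± 0.18 (SE; quasi-likelihood adjusted p = 0.0697). With 1 library left out the adjusted p ran from 0.0427 without high-fat 3 to 0.188 without high-fat 2, and it was under 0.05 only in the first of these. Per2, a core repressor of the CLOCK and BMAL1 pair, was at 15.8, 25.1, 41.9, 26.3 and 22.0 CPM in high-ratio libraries, against 44.6, 32, 44.1, 46.4 and 77.1 CPM in low-ratio libraries. Its only overlap was high-fat 1 over control 5, and the difference was -0.89 ± 0.26 (SE; quasi-likelihood adjusted p = 0.127). Per1, its paralog, ran from 11.3 to 100 CPM in high-ratio and from 27.0 to 88.2 CPM in low-ratio libraries. Its lowest library of all was control 3, which had the highest ratio, and its log2 fold change of -0.26 ± 0.44 (SE) was within the spread.

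Ciart, an inhibitor of the CLOCK and BMAL1 pair, had the largest fold change of the 14 clock genes. It was listed under the older symbol RGD1566380 and was at 0.909, 1.54, 6.13, 10.7 and 4.06 CPM in high-ratio libraries, against 8.60, 14.5, 16.6, 15.3 and 15.1 CPM in low-ratio libraries. The sides overlapped only through high-fat 4, whose ratio was second to last on the high side, and control 4, the library with the highest ratio of the low side. The difference was -1.57 ± 0.48 (SE; quasi-likelihood adjusted p = 0.143), resting on counts of 10 and 26 in the 2 lowest libraries. Nr1d1, which encodes the Arntl repressor REV-ERBα, was at 286, 261, 290, 348 and 418 CPM in high-ratio libraries, against 429, 888, 440, 513 and 372 CPM in low-ratio libraries. Control 5 stood above all others, and the difference of -0.72 ± 0.22 (SE; quasi-likelihood adjusted p = 0.145) was -0.47 without it. Nr1d1 overlaps Thra on the opposite strand, and no label says whether the counting used strand, so reads of the pair may be mixed.

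The cryptochromes, partners of the Per proteins, overlapped between the sides. Cry1 was at 15.3 to 20.0 CPM in high-ratio and 11.0 to 18.1 CPM in low-ratio libraries, with a log2 fold change of 0.19 ± 0.15 (SE). For Cry2 the ranges were 22.2 to 45.0 CPM in high-ratio and 33.6 to 48.1 CPM in low-ratio libraries, with a log2 fold change of -0.22 ± 0.19 (SE). Bhlhe40, an E-box repressor, averaged 119 ± 41.5 CPM in high-ratio and 120 ± 35.2 CPM in low-ratio libraries (SD, n = 5 each). Its sign changed with the scaling, from -0.02 with TMM to 0.09 with library size alone. Timeless, at 1.65 to 3.27 CPM in high-ratio and 1.37 to 2.99 CPM in low-ratio libraries, did not separate the sides either.

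The D-box factors had opposite signs, and neither was called. Tef, an activator of the family of Dbp, was at 78.3, 96.9, 98.3, 127 and 96.7 CPM in high-ratio libraries, against 112, 137, 149, 160 and 178 CPM in low-ratio libraries. Within the low side it increased in the order of the falling ratio, and only high-fat 4 of the high side lay above a low-ratio library. The difference was -0.56 ± 0.15 (SE; quasi-likelihood adjusted p = 0.0982). With the ratio as a continuous term over all 11 libraries, Tef was the 1 clock gene called, with a log2 fold change of -0.60 per side difference of 3.97 (quasi-likelihood adjusted p = 0.0214). Nfil3, the repressor of the same D-boxes, was at 50.4, 42.6, 59.2, 45.1 and 25.0 CPM in high-ratio libraries, against 29.5, 12.6, 29.3, 20.7 and 33.8 CPM in low-ratio libraries. Only control 1 of the high side fell within the low side's range, and the difference was 0.82 ± 0.26 (SE; quasi-likelihood adjusted p = 0.154).

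**Figure D2:**
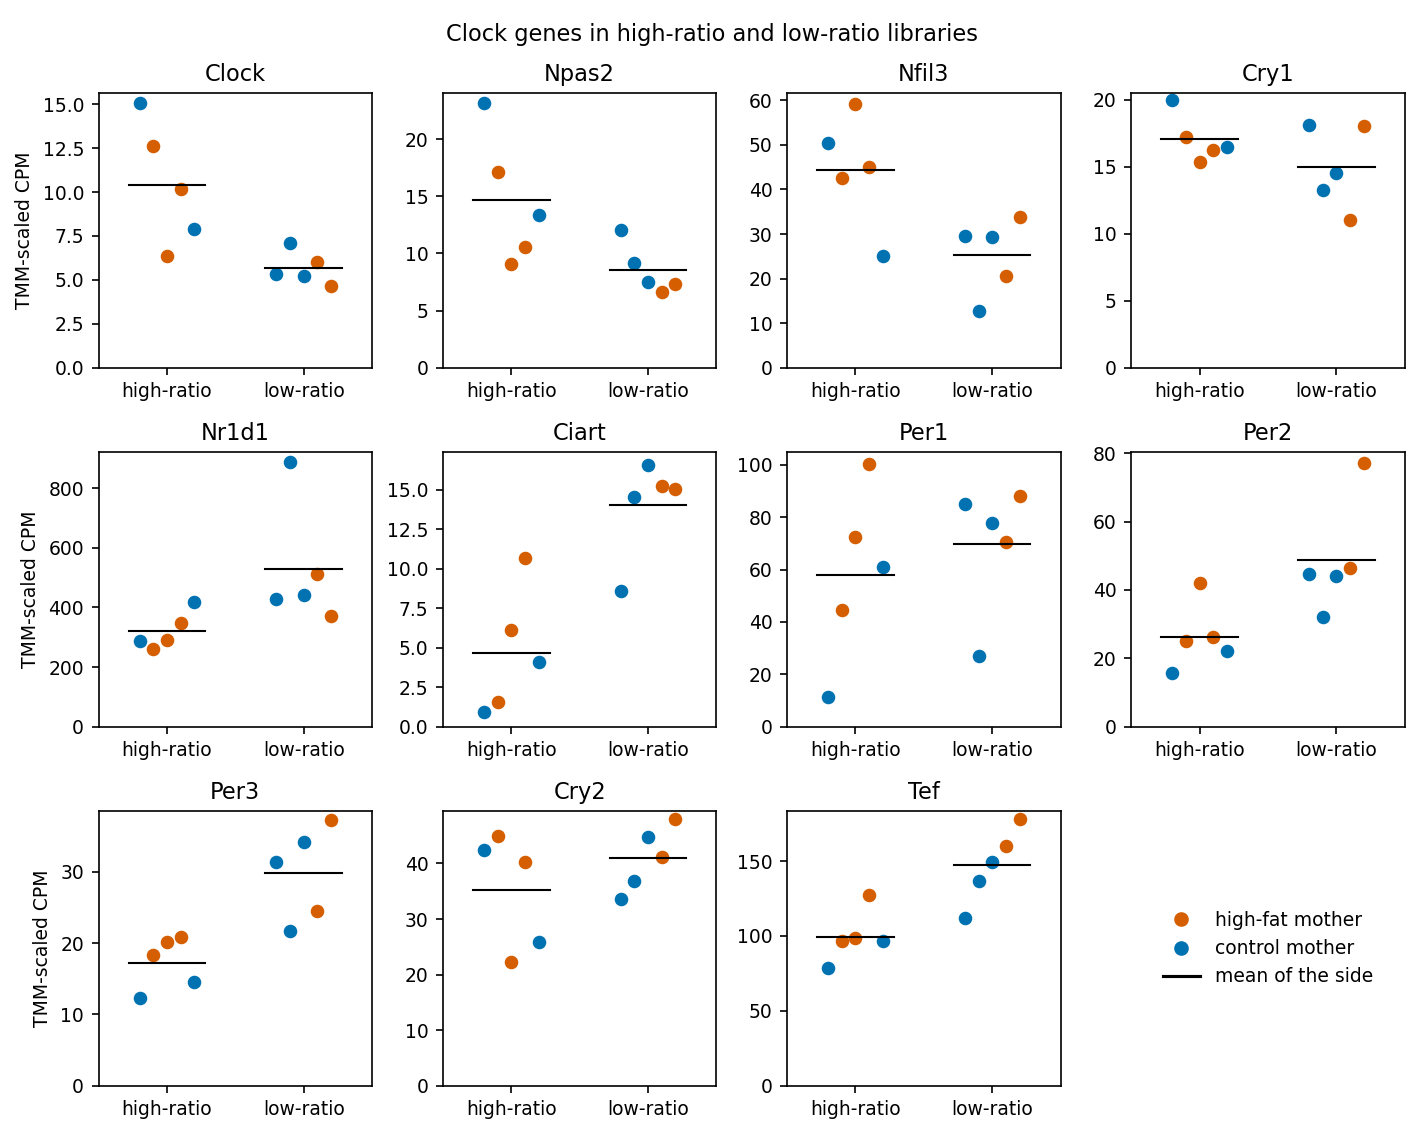
TMM-scaled CPM (y axis, from 0) of 11 clock genes in high-ratio libraries (left of each panel) and low-ratio libraries (right), each point 1 library coloured by the mother's diet and each bar the mean of 5. Clock, Npas2 and Nfil3 have the higher mean in high-ratio libraries and Per2, Per3, Ciart, Nr1d1 and Tef in low-ratio libraries, with full separation for Per3 only.

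The count of clock genes called depended on the test. DESeq2, which called 4.44% of all genes in either direction, called 5 of the 14 (Clock, Per2, Per3, Nr1d1 and Tef). The edgeR likelihood ratio test, with 3.97% of all genes, also called 5 (Clock, Per2, Per3, Ciart and Tef). limma voom, with 0.578%, called none. The control animals alone gave 2 high-ratio against 3 low-ratio libraries and the high-fat animals alone 3 against 2. Per3 differed by -1.12 in control and -0.65 in high-fat animals, and Tef by -0.60 and -0.66. None of the 14 was called within either diet, and no gene of the 10735 was called for a difference in the side effect between diets (quasi-likelihood interaction, smallest adjusted p 0.990, 347 genes at an unadjusted p under 0.05).

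Regulators and outputs of the clock held no call either. Of 13 kinases, phosphatases, ubiquitin ligases and a deubiquitinase that act on clock proteins, none was called and 1, Prkaa1, a catalytic subunit of AMP-activated kinase, was past an unadjusted p of 0.05, with a log2 fold change of 0.37 ± 0.17 (SE; quasi-likelihood adjusted p = 0.285). Of 17 genes known to cycle in muscle or other peripheral tissues, none was called and 2 were past that p, 1 higher and 1 lower. Over all genes tested, 1800 of 10735 were past it. The lower one was Tspan4 (-0.37 ± 0.16, SE; quasi-likelihood adjusted p = 0.265), and the higher one was Leo1. Leo1, a subunit of the PAF1 complex, was at 27.8, 27.5, 17.8, 27.6 and 28.5 CPM in high-ratio libraries, against 19.9, 22.9, 21.8, 18.1 and 21.1 CPM in low-ratio libraries. All high-ratio libraries but high-fat 1 exceeded the low side (0.31 ± 0.13, SE; quasi-likelihood adjusted p = 0.262). Myod1, a myogenic factor and known clock target, averaged 13.5 ± 5.72 CPM in high-ratio and 12.5 ± 3.24 CPM in low-ratio libraries (SD, n = 5 each).

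The genes that were called were of another kind. Those with the smallest p were Fcgr2b (an inhibitory receptor for IgG), Dapk1 (a death-associated kinase), Cfd (complement factor D, made by fat cells), RT1-DMa and RT1-Ba (class II antigen presentation), Tgfbi (a matrix protein), Tmem43, Glrx (glutaredoxin), Alox5ap (leukotriene synthesis), Laptm5 (a lysosomal protein of blood cells) and Plek (pleckstrin). These were all higher in high-ratio libraries, by log2 fold changes from 0.70 (Tmem43) to 2.17 (Fcgr2b), each with an adjusted p of 0.0355. All 56 higher and all 5 lower calls had sides that did not overlap.

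Fcgr2b was at 8.27, 17.7, 21.5, 26.1 and 12.1 CPM in high-ratio libraries, against 4.58, 3.27, 4.05, 4.25 and 2.87 CPM in low-ratio libraries. The 2 control libraries were the lowest of the high side, and the log2 fold change of 2.17 ± 0.29 (SE) was 1.36 in control animals alone and 2.59 in high-fat animals alone. RT1-Ba was at 75.9, 119, 45.5, 73.1 and 95.7 CPM in high-ratio libraries, against 34.5, 30.6, 34.4, 31.3 and 23.7 CPM in low-ratio libraries (1.41 ± 0.21, SE). Its low-ratio libraries lay close together and its high-ratio libraries spread widely. Short reads of the polymorphic RT1 family can be split between members, so its levels are uncertain. Cfd was at 275, 282, 165, 143 and 200 CPM in high-ratio libraries, against 75.7, 77.6, 87.5, 109 and 65.1 CPM in low-ratio libraries (1.36 ± 0.20, SE), and it was also called with the ratio as a continuous term over 11 libraries (adjusted p = 0.0214).

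Further calls, picked here after their values were seen, were Ptprc, the pan-leukocyte antigen CD45, at 1.39 ± 0.24 (SE), the leukocyte tetraspanin Cd53 at 1.72 ± 0.29 (SE) and the lysosomal protease Ctss at 1.36 ± 0.23 (SE). Tnnt2, a troponin of heart and of developing skeletal muscle, was at 47.5, 46.3, 54.9, 51.3 and 133 CPM in high-ratio libraries, against 17.7, 27.4, 12.9, 18.4 and 17.8 CPM in low-ratio libraries (1.82 ± 0.31, SE; quasi-likelihood adjusted p = 0.0357). Control 1 stood above the others, and the remaining high-ratio libraries still lay above the low side.

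Of 12 macrophage markers tested, 5 were called higher (Mrc1, C1qc, C1qb, Lyz2 and Cd14), all 12 were past an unadjusted p of 0.05 in that direction, and 10 had every high-ratio library above every low-ratio library. The median log2 fold change was 1.31, against 0.01 over all genes tested. Their summed level was 871 CPM in control 3, 1862 in high-fat 5, 1106 in high-fat 1, 1133 in high-fat 4 and 1059 in control 1, against 642, 360, 467, 668 and 298 CPM in low-ratio libraries. None of the 12 was at 0. In bulk tissue, more cells of a type and more RNA per cell cannot be told apart. The list median was 1.00 in control animals alone, 1.46 in high-fat animals alone and 1.02 without high-fat 4 and high-fat 5.

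Mrc1, the mannose receptor of tissue-resident macrophages, was at 38.2, 93.4, 61.0, 81.2 and 49.7 CPM in high-ratio libraries, against 29.4, 19.6, 23.7, 28.5 and 14.2 CPM in low-ratio libraries. The sides did not overlap, with control 3 nearest to the low side, and the difference was 1.49 ± 0.25 (SE; quasi-likelihood adjusted p = 0.0357). C1qc, a chain of complement C1q, was at 181, 352, 212, 221 and 202 CPM in high-ratio libraries, against 127, 62.0, 78.8, 132 and 61.1 CPM in low-ratio libraries. High-fat 5 was the highest library, and the difference was 1.34 ± 0.25 (SE; quasi-likelihood adjusted p = 0.0442). C1qb, another chain of the same protein, differed by 1.28 ± 0.24 (SE). Lyz2, a lysozyme, averaged 218 ± 82.7 CPM in high-ratio and 86.5 ± 26.8 CPM in low-ratio libraries (SD, n = 5 each). Its near copy Lyc2 was also called, and 36-cycle reads can be shared between the pair, so these are not separate observations. Cd163, a scavenger receptor with the largest fold change of the list, was at 31.1, 107, 54.6, 90.0 and 30.7 CPM in high-ratio libraries, against 28, 14.4, 19.5, 21.7 and 12.9 CPM in low-ratio libraries, and missed the call (1.70 ± 0.35, SE; quasi-likelihood adjusted p = 0.0538).

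**Figure D3:**
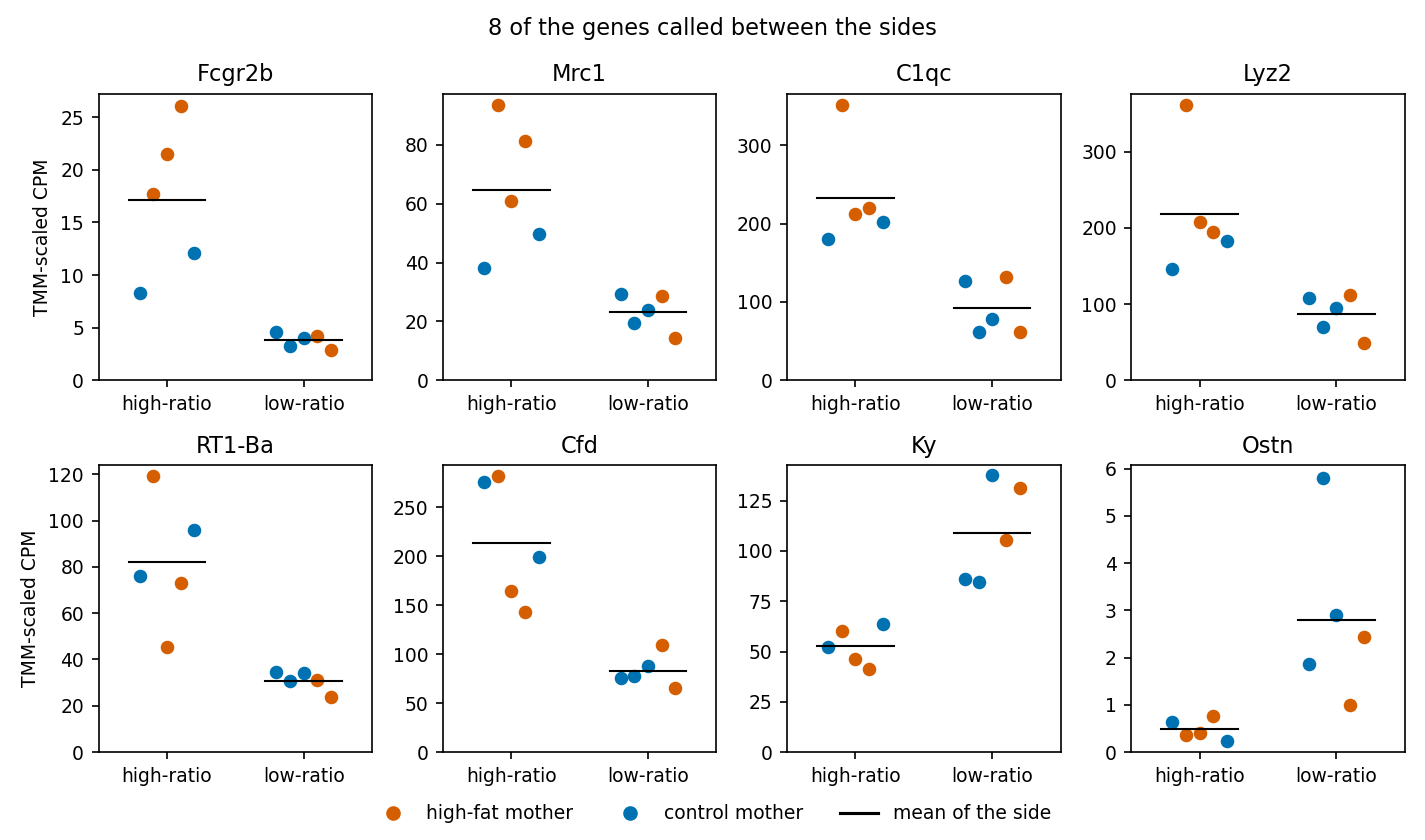
TMM-scaled CPM (y axis, from 0) of 8 called genes in high-ratio libraries (left of each panel) and low-ratio libraries (right), each point 1 library coloured by the mother's diet and each bar the mean of 5. The sides do not overlap in any panel; Ky and Ostn are lower and the other 6 genes higher in high-ratio libraries.

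The 5 genes that were lower were Ky, Mrm1, Ifi27, Ostn and Lyrm9. Ky, a muscle protein of the Z-disc needed for normal muscle maintenance, was at 52.4, 60.1, 46.3, 41.1 and 63.5 CPM in high-ratio libraries, against 86.2, 84.5, 138, 105 and 131 CPM in low-ratio libraries. The difference was -1.05 ± 0.17 (SE; quasi-likelihood adjusted p = 0.0355), and it was -0.83 in control and -1.27 in high-fat animals alone. Ostn, the secreted muscle peptide osteocrin or musclin, had 7, 6, 5, 12 and 3 counts in high-ratio libraries, against 20, 85, 40, 12 and 23 counts in low-ratio libraries. Scaled for depth its sides did not overlap, at 0.244 to 0.761 CPM in high-ratio and 1.00 to 5.80 CPM in low-ratio libraries (-2.53 ± 0.48, SE; quasi-likelihood adjusted p = 0.0442). Ifi27, an interferon-inducible gene, averaged 303 ± 40.3 CPM in high-ratio and 460 ± 45.0 CPM in low-ratio libraries (SD, n = 5 each). Mrm1, a methyltransferase of mitochondrial ribosomal RNA, averaged 8.92 ± 0.98 and 15.2 ± 2.42 CPM, and Lyrm9, a protein with a LYR motif, 11.5 ± 1.33 and 17.5 ± 1.65 CPM, in high-ratio and low-ratio libraries (SD, n = 5 each). The next gene by p, the ion channel gene Pkd2l1, had 3 to 14 counts in high-ratio and 18 to 36 in low-ratio libraries and missed the call (-1.90 ± 0.39, SE; quasi-likelihood adjusted p = 0.0530).

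Of 8 adipocyte markers tested, 7 had the higher mean in high-ratio libraries, 3 of them at an unadjusted p under 0.05. Fabp4, a fatty acid carrier also of endothelium, had the lower mean and was past that p in the opposite direction. The median log2 fold change of the list was 1.04, with Cfd the only call. Adipoq, which encodes adiponectin, was at 99.3, 92.4, 9.77, 38.4 and 68.3 CPM in high-ratio libraries, against 5.23, 27.8, 33.8, 35.3 and 26.4 CPM in low-ratio libraries. High-fat 1 was low within the high side, and the sides overlapped (1.26 ± 0.54, SE; quasi-likelihood adjusted p = 0.266). The summed adipocyte list ran from 500 to 943 CPM in high-ratio and from 590 to 863 CPM in low-ratio libraries. Of 11 fibroblast and matrix genes all had the higher mean in high-ratio libraries, 7 at an unadjusted p under 0.05 and none called, with a median of 0.79. Lum, the matrix proteoglycan lumican, averaged 86.2 ± 35.1 CPM in high-ratio and 36.2 ± 17.3 CPM in low-ratio libraries (SD, n = 5 each; 1.25 ± 0.33, SE; quasi-likelihood adjusted p = 0.0996). The summed matrix list was 1710 to 3907 CPM in high-ratio and 1091 to 3255 CPM in low-ratio libraries.

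Among 5 lymphocyte and mast cell markers tested, none was called and the median was 0.85. Their summed level was 35.4 to 154 CPM in high-ratio and 25.2 to 50.9 CPM in low-ratio libraries. The 6 other markers were too low to test and are not in the sum, and of these Mcpt1, a mast cell protease, was at 0 in all 10. Cpa3, the mast cell carboxypeptidase, was at 28.9, 47.8, 10.4, 24.1 and 33.7 CPM in high-ratio libraries, against 9.44, 10.2, 9.55, 18.3 and 10.3 CPM in low-ratio libraries (1.33 ± 0.33, SE; quasi-likelihood adjusted p = 0.0875). High-fat 1 again sat with the low side. The 3 neutrophil markers tested had a median of 2.01, and their list summed to 2.60 to 52.7 CPM in high-ratio and 3.17 to 7.57 CPM in low-ratio libraries. The high-ratio libraries that stood out were high-fat 1 and high-fat 4, where S100a9, a neutrophil alarmin, was at 17.3 and 28.8 CPM, against at most 3.92 CPM in each of the other 8 libraries. The list median was 0.96 without high-fat 4 and -0.79 in control animals alone, and S100a9 differed by 1.17 and -0.44 in the same fits. The part of these cells in the differences of other genes was not tested.

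Vascular and nerve markers had negative medians. Of 7 endothelial markers 6 had the lower mean in high-ratio libraries, with a median of -0.36 and none called; their sum was 335 to 590 CPM in high-ratio and 437 to 720 CPM in low-ratio libraries. Cdh5, the cadherin of endothelial junctions, averaged 56.1 ± 13 CPM in high-ratio and 80.6 ± 25.4 CPM in low-ratio libraries (SD, n = 5 each). Smooth muscle and pericyte markers had a median of -0.36 over 6, with Tagln, a smooth muscle actin-binding protein, at 158 ± 50.3 CPM in high-ratio and 227 ± 43.5 CPM in low-ratio libraries (SD, n = 5 each), and the list sum was 4656 to 9453 CPM against 4941 to 6807 CPM. The 7 nerve markers had a median of -1.09 that turned to 0.47 without control 5. The nerve list summed to 280 to 406 CPM in high-ratio and, apart from 1986 CPM in control 5, to 192 to 258 CPM in low-ratio libraries. Red blood cell genes had a median of -0.22 over 5, with sums of 515 to 1087 CPM in high-ratio and 664 to 890 CPM in low-ratio libraries. Tendon genes had a median of -0.16 over 6, with sums of 343 to 614 CPM in high-ratio and 136 to 654 CPM in low-ratio libraries; Thbs4, a thrombospondin of tendon and muscle matrix, was past an unadjusted p of 0.05 (1.02 ± 0.43, SE; quasi-likelihood adjusted p = 0.259). Without high-fat 3 the tendon median was 0.03 and Thbs4 differed by 1.70, and in control animals alone the median was 0.55.

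Genes of muscle metabolism had the lower mean in high-ratio libraries, none of them called. Of 69 nuclear genes of oxidative phosphorylation, all had the lower mean in high-ratio libraries, 50 at an unadjusted p under 0.05, 6 with sides apart and none called, with a median of -0.38. Atp5g1, a c-ring subunit of ATP synthase, was at 273, 236, 320, 329 and 282 CPM in high-ratio libraries, against 610, 353, 487, 408 and 421 CPM in low-ratio libraries. Every high-ratio library lay below the low side (-0.66 ± 0.15, SE; quasi-likelihood adjusted p = 0.0691). The median was -0.48 in control animals alone, -0.22 in high-fat animals alone and -0.27 with library size scaling, which moved the median of all genes from 0.01 to 0.12. The summed list was lowest in high-fat 5 and control 3, at 32902 and 36878 CPM, and the other high-ratio libraries held 41333 to 48449 CPM, against 44202 to 62502 CPM in low-ratio libraries.

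The 19 genes of fatty acid oxidation all had the lower mean in high-ratio libraries, with a median of -0.32, 7 past an unadjusted p of 0.05 and none called. Acaa2, the thiolase of the last step of mitochondrial β-oxidation, was at 138, 173, 278, 267 and 230 CPM in high-ratio libraries, against 305, 313, 380, 319 and 334 CPM in low-ratio libraries. Its sides were apart, with control 3 and high-fat 5 the lowest (-0.61 ± 0.17, SE; quasi-likelihood adjusted p = 0.125). The 13 glycolytic genes likewise all had the lower mean, with a median of -0.33, 8 past that p and none called. Ldha, a subunit of lactate dehydrogenase, was at 55.7, 46.4, 52.0, 57.0 and 50.2 CPM in high-ratio libraries, against 88.2, 69.0, 98.5, 60.3 and 81.1 CPM in low-ratio libraries (-0.60 ± 0.13, SE; quasi-likelihood adjusted p = 0.0636). Its high-ratio libraries lay within a narrow band below the low side.

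Fast fibre genes had a median of -1.24, with 11 of 12 at the lower mean in high-ratio libraries, 7 past an unadjusted p of 0.05 and none called. Tnnc2, the fast troponin C, was at 203, 363, 506, 286 and 394 CPM in high-ratio libraries, against 1582, 542, 1457, 397 and 1322 CPM in low-ratio libraries. The low side itself was split, with control 5 and high-fat 3 far below the other 3 and high-fat 3 inside the range of the high side (-1.60 ± 0.37, SE; quasi-likelihood adjusted p = 0.0700). Myh2, a fast oxidative myosin heavy chain, had the same split, at 99.6 to 595 CPM in high-ratio libraries, against 2276, 581, 2381, 260 and 2271 CPM in low-ratio libraries (-2.27 ± 0.65, SE). The list median was -0.66 with the first letter of the animals' names as a covariate. Slow fibre genes differed less, with a median of -0.14 over 10. Their summed level was 75764 to 101710 CPM in high-ratio and 84113 to 106810 CPM in low-ratio libraries, the level of a slow muscle on both sides. Myl3, the slow myosin light chain, was the 1 slow gene with sides apart (-0.48 ± 0.16, SE; quasi-likelihood adjusted p = 0.163).

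Genes of satellite cells and denervation had the higher mean in high-ratio libraries in 9 of 10 cases, with a median of 0.83, 6 past an unadjusted p of 0.05 and none called. Runx1, a transcription factor induced in denervated muscle, was at 9.91, 24.0, 18.6, 12.0 and 9.51 CPM in high-ratio libraries, against 8.41, 5.39, 6.80, 8.59 and 6.15 CPM in low-ratio libraries (1.07 ± 0.26, SE; quasi-likelihood adjusted p = 0.0852). High-fat 5 and high-fat 1 were the highest, and the sides did not overlap. Chrna1, the α subunit of the acetylcholine receptor, also peaked in these libraries, at 143 and 118 CPM, against 31.4 to 76.3 CPM in the other high-ratio and 23.6 to 46.5 CPM in the low-ratio libraries (1.18 ± 0.35, SE; quasi-likelihood adjusted p = 0.132).

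**Figure D4:**
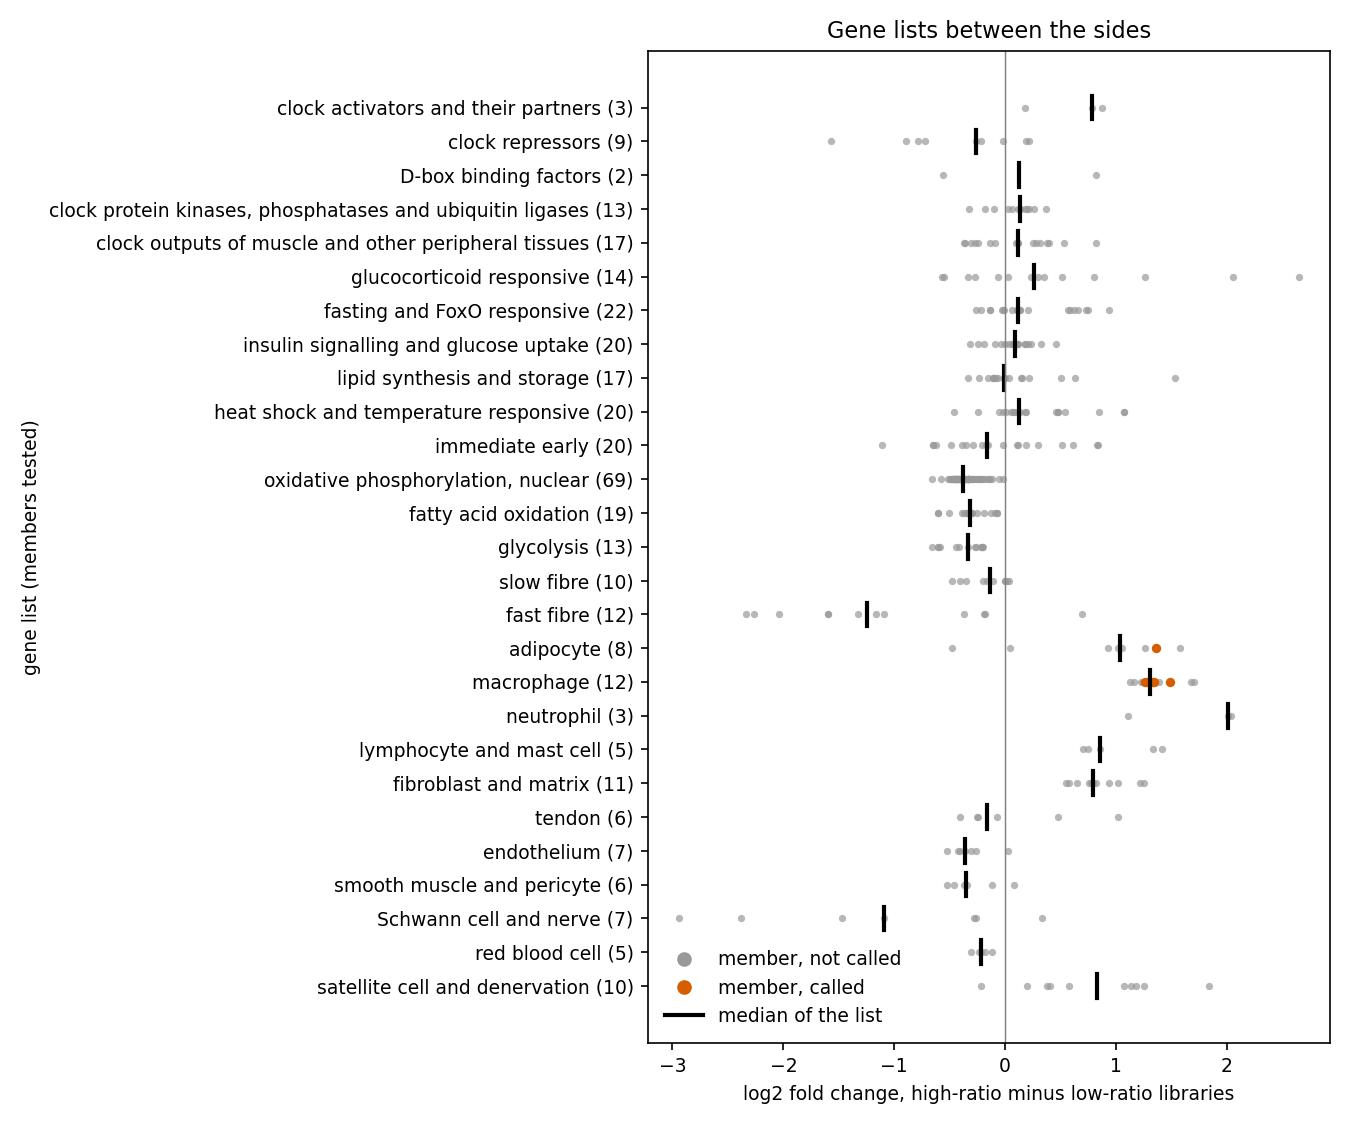
Log2 fold changes, high-ratio minus low-ratio (x axis), of the tested members of 27 gene lists (rows, number tested in brackets), with 1 dot per gene, called genes in orange and a bar at the list's median. Called members occur in the macrophage list (5) and the adipocyte list (1) and in no other; all oxidative phosphorylation genes lie below 0 and all macrophage genes above it.

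Lists for hormonal, nutritional and stress states held no call. At an unadjusted p under 0.05 they held 3 of 14 glucocorticoid-responsive, 4 of 17 lipid, 5 of 20 heat shock and 1 of 20 insulin signalling genes. They held 0 of 22 fasting and 0 of 20 immediate early genes. Over all genes tested, 1800 of 10735 were past that p, so these counts set no list apart. Glucocorticoid-responsive genes had a median of 0.26 over 14, which was -0.21 without high-fat 4 and -0.48 in control animals alone. Cdkn1a, a cell cycle inhibitor, was at 69.2, 330, 145, 163 and 98.2 CPM in high-ratio libraries, against 87.6, 77.8, 51.9, 61.0 and 59.0 CPM in low-ratio libraries (1.26 ± 0.34, SE; quasi-likelihood adjusted p = 0.109). The 3 high-fat libraries of the high side were the highest of all, and the difference was 0.82 without high-fat 5 and 0.21 in control animals alone. Fkbp5, a chaperone of the glucocorticoid receptor, was at 143 CPM in high-fat 4 and at 18.5 to 56.7 CPM in the other high-ratio libraries, against 24.4 to 65.2 CPM in low-ratio libraries. Its log2 fold change of 0.51 ± 0.50 (SE) turned to -0.25 without high-fat 4 and high-fat 5. Pdk4, the kinase that restrains pyruvate use in fasting, was at 297 and 444 CPM in high-fat 1 and high-fat 4 and at 90.4 to 104 CPM in the other high-ratio libraries, against 80.4 to 187 CPM in low-ratio libraries (0.74 ± 0.44, SE). Without high-fat 4 it was 0.25, and in control animals alone -0.54. Over 22 fasting and FoxO genes the median was 0.12, against -0.29 in control animals alone. Foxo1 differed by 0.59 ± 0.27 (SE), but by 0.30 without high-fat 4 and 0.08 in control animals alone.

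In insulin signalling and glucose uptake, 20 genes had a median of 0.09, with Ptpn1, a phosphatase of the insulin receptor, at 0.46 ± 0.16 (SE; quasi-likelihood adjusted p = 0.191). Lipid synthesis and storage genes had a median of -0.01 over 17, with no steady sign when 1 library was left out. Scd1, a desaturase, was at 26.5, 48.7, 6.05, 16.3 and 15.2 CPM in high-ratio libraries, against 2.43, 8.39, 9.98, 14.6 and 3.18 CPM in low-ratio libraries (1.54 ± 0.54, SE; quasi-likelihood adjusted p = 0.190). High-fat 1 again lay with the low side. Heat shock genes had a median of 0.12 over 20, and 16 had the higher mean in high-ratio libraries. Of the 5 at an unadjusted p under 0.05, 4 were higher and 1 was lower. Among the higher ones, Hspa1a and Hspa1b were at 1854 and 1980 CPM in high-fat 4. In the other high-ratio libraries they were at 355 to 737 CPM. Their values ran in parallel over the libraries, so they may not be separate observations. The lower one was Cryab, a small heat shock protein of muscle. It was at 9239 ± 2097 CPM in high-ratio and 12702 ± 935 CPM in low-ratio libraries (SD, n = 5 each), with a quasi-likelihood adjusted p of 0.207. Immediate early genes had a median of -0.16 over 20, which ran from -0.40 without high-fat 1 to 0.09 without high-fat 3. Maff, a small MAF factor, differed by 0.61 ± 0.29 (SE), by 0.39 without high-fat 4 and by -0.04 in control animals alone.

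Mean body weight was lower on the high side, but none of 14 body and plasma measures passed (two-sided exact permutation tests over 252 splits, or 126 for insulin, glucose and HOMA-IR, adjusted over 14, smallest adjusted p 0.444). Body weight was 642 g in control 3, 625 in high-fat 5, 609 in high-fat 1, 900 in high-fat 4 and 704 in control 1, against 831, 760, 909, 884 and 734 g on the low side. Except for high-fat 4, every animal of the high side weighed less than every animal of the low side. The means were 696 ± 120 g on the high side and 824 ± 75.9 g on the low side (SD, n = 5 each; exact permutation p = 0.0873). Mesenteric fat weighed 7.88 ± 2.78 g on the high side and 11.0 ± 1.10 g on the low side (SD, n = 5 each; exact permutation p = 0.0635). Liver weighed 19.5 ± 5.59 g on the high side and 25.4 ± 2.68 g on the low side (SD, n = 5 each; exact permutation p = 0.0952). Plasma insulin was 1.94 ± 0.64 ng/ml on the high side (SD, n = 4, high-fat 5 having no value) and 1.79 ± 0.44 ng/ml on the low side (SD, n = 5; exact permutation p = 0.794).

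**Figure D5:**
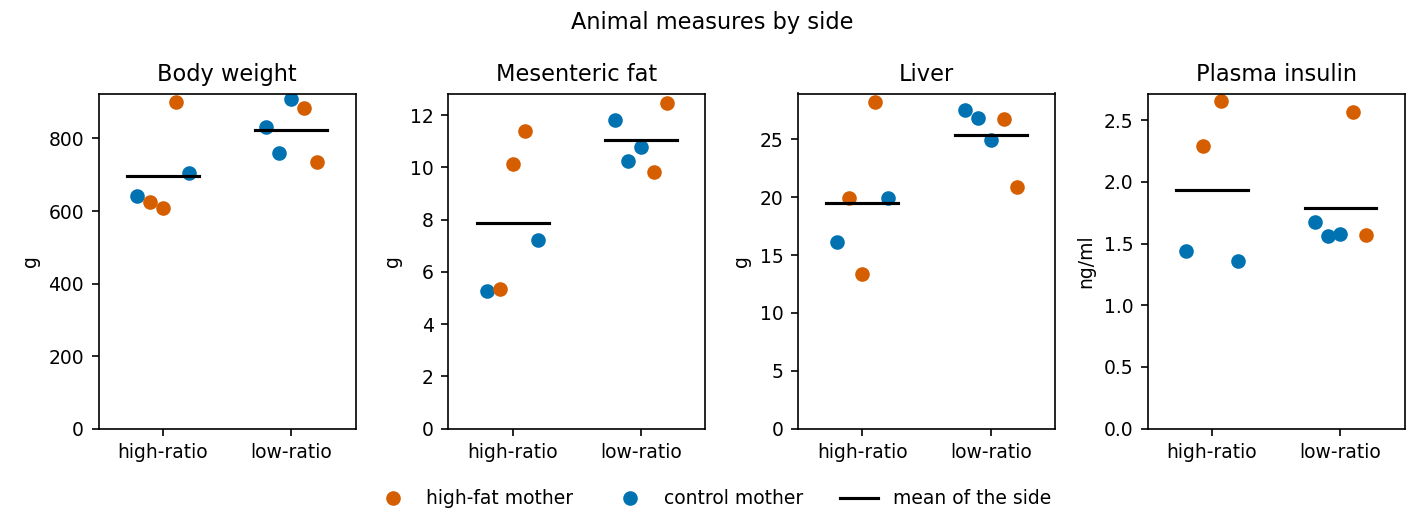
Body weight, mesenteric fat and liver weight (g) and plasma insulin (ng/ml) of the animals of the high-ratio side (left of each panel) and the low-ratio side (right), each point 1 animal coloured by the mother's diet and each bar the mean. On the high side high-fat 4 is the heaviest animal at 900 g, and the other 4 weigh 609 to 704 g, against 734 to 909 g on the low side.

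The libraries held 13.05 ± 2.06 M counts on the high side and 12.6 ± 2.20 M on the low side (SD, n = 5 each), with 10.2 to 15.4 M over all. The 10 most abundant genes took 21.1 ± 1.30% of counts on the high side and 23.5 ± 1.90% on the low side (SD, n = 5 each; exact permutation p = 0.0635). None of 4 library measures passed (exact permutation, smallest adjusted p 0.190). The 20 pairs of libraries within a side all varied beyond sampling noise (chi-square per degree of freedom 21.7 or more), and each library was kept as 1 animal. The first letters of the animals' names, whose meaning the labels do not give, were C in 3, A in 1 and H in 1 animal of the high side, and C in 1, A in 2 and H in 2 of the low side. With the letter as a covariate 6 genes were called higher and none lower.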

How the data were processed

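Gene counts as deposited by the authors, not normalized, fill 1 table of 16810 gene symbols by 11 soleus libraries. Tools named in the submitters' processing notes, with no version, are BWA, HTSeq, edgeR and FastQC. Build, annotation and strand handling are not stated in the labels. Animal names in the labels tie each column to its animal and diet. High-fat 2, 3, 4 and 5 here carry the numbers 3, 4, 5 and 6 in the deposited column names, and the other numbers are the same. Per the labels' protocols, reads had 36 cycles.

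The sides were set from counts divided by the column sum, as CPM. The filterByExpr function of edgeR, given the side, chose the genes (10737 kept, 6073 removed), which were scaled by TMM and tested with the quasi-likelihood F test, with Arntl and Dbp left out of the fit (10735 tested, common biological coefficient of variation 0.2185). Each standard error is the fold change on the log2 scale over the square root of F. A list's summed CPM counts its tested members only. A total of 24 rows with names turned into dates hold 0.107% of counts and are not named. The fit was also tested on counts simulated with fixed sides and independent genes. That run does not cover sides chosen from the same libraries. Animal, library and diet comparisons used exact tests over libraries.

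The sides, lists and members were chosen with earlier results of these data known. The genes named are, in each direction, the 12 called genes of smallest p (where fewer than 12 passed, those, filled up to 6), every tested member of the 3 clock lists, and of each other list every call up to 4 or else the smallest p. Cry1, Per2, Nr1d1, Npas2, Myod1, Pdk4 and Fkbp5 were always named. Some genes picked by this rule are not reported here but stayed in the fit and the lists. Cd163, Myh2, Adipoq, Chrna1, Ptprc, Cd53, Ctss and Tnnt2 fall outside this rule and were picked after their values were seen. Lyc2, Cd14, Fabp4, Tspan4, Hspa1a and Hspa1b are also named outside it.

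Alternatives were RLE or library size scaling, no or a stricter filter (5 CPM in 5 libraries), DESeq2, edgeR's likelihood ratio test, limma voom, diet or the name letter as a covariate, the ratio as a continuous term over 11 libraries, 4 against 4 libraries, control animals alone, and each library left out. High-fat animals alone, and high-fat 4 and 5 left out, were added after seeing the data. Versions were Python 3.11.15, SciPy 1.17.1, pandas 2.3.3, NumPy 2.4.6 and matplotlib 3.10.9, and R 4.3.3 with DESeq2 1.42.0, limma 3.58.1 and edgeR 4.0.16.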

Additional observations from a re-analysis of the deposited data

Results flagged for a closer look

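In 6 of 154 groups of 5 libraries or animals (4 where 1 had no value), 1 member stood apart from the rest of its side by Dixon's test, and chance gives about 1 in 20 groups. On the low side, control 5 held 27.0 CPM of Per1, against 70.6 to 88.2 CPM in the other 4. Control 4, the low-ratio library with the highest ratio, held 8.60 CPM of Ciart (row RGD1566380), against 14.5 to 16.6 CPM. High-fat 3 held 18.3 CPM of Cpa3, against 9.44 to 10.3 CPM, and its animal had 2.57 ng/ml of plasma insulin, against 1.56 to 1.67 ng/ml. On the high side, high-fat 1 held 17.8 CPM of Leo1, against 27.5 to 28.5 CPM, and high-fat 4 held 59.5 CPM of Hbb-b1, a β-globin with near copies, against 36.8 to 38.7 CPM.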

How the results depend on the processing

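The count of calls depended on the setting, while the direction of the calls did not. All 61 called genes kept their sign in each alternative in which they were fitted, which was 55 under the stricter filter. Their sides did not overlap, so fits on fewer of the same libraries could hardly turn a sign. The kept signs are thus no separate support for the calls. The 56 higher and 5 lower calls became 330 and 147 with DESeq2, 321 and 105 with the likelihood ratio test, 7 and 1 with diet added to the fit, 6 and 0 with the name letter added, 6 and 0 in control animals alone and 4 and 3 with the ratio over 11 libraries. They were 0 and 0 with 4 against 4 libraries, in high-fat animals alone and without high-fat 4 and 5 (1330, 801 and 1066 genes at an unadjusted p under 0.05). Library size scaling gave 54 and 1, and 47 of these were main calls. Leaving out 1 library at a time gave 0 to 241 higher and 0 to 34 lower calls. The cause of these moves was not tested. Main calls kept were 51 under RLE scaling, 54 with voom and 55 without a filter. Of the calls with diet added 6 were main calls, and with the name letter added 5 were. In control animals alone only 2 calls were main calls, and with the ratio over 11 libraries also 2. None of these calls was tested in other animals.

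Signs turned for genes that were not called. In control animals alone the log2 fold change was -0.0854 for Rora, -0.038 for Maff, -0.44 for S100a9, -0.54 for Pdk4 and -0.89 for Fkbp5. In high-fat animals alone it was 0.17 for Bhlhe40 and -0.10 for Myod1. Without high-fat 4 and 5 it was -0.20 for Myod1 and -0.25 for Fkbp5. Bhlhe40 was at 0.0853 with library size scaling and 0.10 with the name letter. List medians of clock output, immediate early, lipid, tendon, neutrophil, glucocorticoid-responsive, fasting and nerve genes also turned sign in 1 or more settings. With 1 library left out, Bhlhe40 ran from -0.20 to 0.11, Myod1 from -0.15 to 0.29 and Fkbp5 from -0.23 to 0.78.

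Among measures that did not pass, the sign turned for brain weight with 4 against 4 animals (-0.000375 g), and for medians in brain (-0.0515 g), perirenal fat (-8.68 g), total fat as a share of body weight (-0.887 percentage points), pancreas (0.0113 g) and glucose (-0.06 mmol). With 1 animal left out the differences ran from -9.34 to 7.54 g for perirenal fat, -1.80 to 0.961 g for abdominal fat, -13.8 to 5.00 g for total fat, -1.14 to 2.00 percentage points for its share, -0.0549 to 0.0623 g for brain, -0.0933 to 0.340 ng/ml for insulin, -0.368 to 1.49 mmol for glucose, -1.57 to 5.95 for HOMA-IR and -0.121 to 1.18 M for total counts. No paired analysis was possible because the replicate numbers follow accession order and pair no animals. With 3 to 12 counts per high-ratio library, Ostn is also limited by depth.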
